A study of Mus musculus with 4 samples.

Results

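The genes described here serve ribosome production, polyamine synthesis and the MYC/MAX network of transcription factors. They were chosen by name among the protein-coding genes of the count table, and 83 of the 52636 genes in the table matched. Of these, 80 reached a level of 1 CPM, the count scaled to the size of its library, in at least 1 library and were tested. The other 3, Nol3, Nol4 and Wdr74, had at most 6 counts in any library.

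Ribosomes are made in the nucleolus, where RNA polymerase I transcribes the ribosomal RNA precursor. Small nucleolar ribonucleoproteins (snoRNPs) modify that precursor, and many assembly factors fold it, cut it and join it to ribosomal proteins to form the small (40S) and large (60S) subunits. MYC binds DNA with its partner MAX, often at the sequence CACGTG, called an E-box, and genes of ribosome production and polyamine synthesis are among its best known targets. Polyamines are small positively charged molecules that bind RNA and are needed for cell growth, and ornithine decarboxylase (Odc1) starts their synthesis.

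RNA-seq was performed on Myc-CaP cells, a prostate cancer line labelled as FVB strain and Hi-Myc transgenic. Hi-Myc mice carry a human MYC transgene driven by a modified probasin promoter, which is active in prostate epithelium. All 4 libraries came from this line, so every group, controls included, shares the transgene. The 4 groups were cells with stable negative control hairpins and vehicle (shNC vehicle), the same line with 10 µM norepinephrine (shNC norepinephrine), cells with stable hairpins against focal adhesion kinase and vehicle (shFAK vehicle), and that line with 10 µM norepinephrine (shFAK norepinephrine), each for 24 h. Focal adhesion kinase (FAK, gene Ptk2) is a tyrosine kinase of cell contacts with the matrix, and norepinephrine is the transmitter of sympathetic nerves. Whether each line was 1 clone or a pool was not given in the sources used here. With 1 library in each group, none of the differences below could be checked against replicate cultures.

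Total counts were between 23410486 and 29948640 per library. The shFAK norepinephrine library had the lowest total but the most genes with a count, 23121 against 20442 to 21678 in the others. Ptk2 had 3547 and 3158 counts in the shNC libraries and 1294 and 1248 in the shFAK libraries, log2 ratios of -1.29 under vehicle and -1.19 under norepinephrine. Of the luminal epithelial markers reported here, Hoxb13 had at least 1095 counts in every library. Krt18 had 1 to 4 counts, Epcam 0 to 15 and Cdh1 0 to 7, so these 3 markers were absent or nearly so, while other markers of the list are not reported here. Krt8 had 153 and 165 counts in the shNC libraries and 50 and 48 in the shFAK libraries. The summed level of 6 fibroblast markers was 9.62 and 7.32 CPM in the shNC libraries and 13.5 and 13.9 CPM in the shFAK libraries, mostly from Pdgfra, with Dcn and Lum at 0. Mitochondrial transcripts took 1.22% and 1.15% of counts in the shNC libraries and 1.42% and 1.34% in the shFAK libraries. These shares and marker levels moved with the hairpin, and their part in the results below was not tested. In such bulk libraries, fewer cells of a type and less RNA per cell cannot be told apart.

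Ratios between libraries are given as log2 ratios of scaled CPM with a 99% interval. Because each group had 1 library, that interval covers counting error only. It counts each read as separate, although reads copied by PCR cannot be told apart without molecular identifiers. A ratio was called when it was at least 0.32 in size and its interval left out 0. The hairpin was compared under vehicle and again under norepinephrine, in pairs that share no library. A test was possible only in an additive model of hairpin and treatment, fitted with edgeR's quasi-likelihood test over all 12351 genes that reached 1 CPM, with Benjamini-Hochberg adjustment and a threshold of 0.05. That model has 1 residual degree of freedom, so its p-values measure the departure from additivity pooled over genes and not the spread between cultures. "Rose" and "fell" are used only of genes that passed it. A second fit, called the corrected fit here, first took off the trend of the counts with gene length and GC content. Values taken from it are named as such. Statements that libraries did or did not overlap between lines or treatments describe only the order of their levels. The share of all genes tested that lacked overlap is not given here, so a lack of overlap is not counted as support.

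E-boxes were looked for in the promoters because the members include MYC's own network. The motif CACGTG, which reads the same on both strands, was searched in RefSeq windows (GRCm38.p6) of 250 bases before to 50 bases after each gene's start. It was present for 17 of the 66 members with an entry, or 25.8%, against 12.3% of the protein-coding genes tested and 8.09% of all genes in the promoter table. Among the members with an entry, the 3 promoters below belong to the only ones that held the motif and whose hairpin ratio was called in both pairs. Fbl, Srm and Gnl3l were also called in both pairs but had no entry, so their promoters were not searched. Max is on the minus strand (chr12:76962219-76962498), Mnt on the plus strand (chr11:74830674-74830953) and Sms on the minus strand (chrX:157492258-157492537). Each is printed 5′ to 3′ from 250 bases before the RefSeq start to 30 bases from it, with the E-box in capitals.
Max: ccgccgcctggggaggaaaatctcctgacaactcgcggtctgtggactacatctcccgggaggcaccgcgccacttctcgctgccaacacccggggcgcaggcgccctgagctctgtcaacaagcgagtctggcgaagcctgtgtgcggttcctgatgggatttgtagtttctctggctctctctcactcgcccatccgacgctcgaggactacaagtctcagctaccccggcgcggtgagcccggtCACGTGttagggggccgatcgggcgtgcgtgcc
Mnt: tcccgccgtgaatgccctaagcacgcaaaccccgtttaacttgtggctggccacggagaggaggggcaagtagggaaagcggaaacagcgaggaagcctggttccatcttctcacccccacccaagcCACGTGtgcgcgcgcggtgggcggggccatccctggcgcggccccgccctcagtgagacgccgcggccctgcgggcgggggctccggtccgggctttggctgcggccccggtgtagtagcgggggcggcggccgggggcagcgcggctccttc
Sms: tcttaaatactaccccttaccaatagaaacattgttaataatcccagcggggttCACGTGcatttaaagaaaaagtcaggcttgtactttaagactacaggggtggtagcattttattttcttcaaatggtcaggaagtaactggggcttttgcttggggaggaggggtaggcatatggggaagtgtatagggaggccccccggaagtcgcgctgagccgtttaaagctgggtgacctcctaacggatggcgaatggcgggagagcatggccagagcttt
The E-box began 3 bases before the start in Max, 123 bases before it in Mnt and 196 bases before it in Sms. Max and Sms had lower counts in shFAK and Mnt had higher counts, so the 3 genes that share the motif did not share a direction. Over the 17 members with the motif, 7 fell with the FAK hairpins and 2 rose, and the median log2 ratios were -0.10 under vehicle and -0.19 under norepinephrine. Over the 49 members with an entry and no motif, 23 fell and none rose, with medians of -0.15 and -0.21. Of all genes tested, 16.2% fell and 19.5% rose. A match describes the letters in the window and is no evidence of binding.

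The members as a group were lower in the cells with FAK hairpins. Together they took 1.73% of counts in each shNC library, 1.54% in shFAK vehicle and 1.53% in shFAK norepinephrine. In the additive model 38 of the 80 fell (47.5%) and 3 rose (3.75%), against 16.2% lower and 19.5% higher among all genes tested. The 3 that rose were Gnl3l, Mnt and Mxd4. The median log2 ratio of the members was -0.15 under vehicle and -0.21 under norepinephrine, where the medians of all genes tested were 0.00 and 0.02. The ratio was below 0 in both pairs for 63 members, above 0 in both for 8 and of opposite sign for 9.

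By size, most of these differences were small. Under vehicle alone, 12 members were called lower and 2 higher, or 15% and 2.50%, against 5.54% and 9.94% of all genes tested. In both pairs, 10 members were called lower (12.5%, background 3.82%) and 2 higher (2.50%, background 7.61%). The lower ones were Fbl, Nop16, Rrp15, Max, Npm3, Sms, Srm, Polr1e, Rrp9 and Nol12, and the higher ones were Gnl3l and Mnt. In the corrected fit Nop16, Rrp15, Srm and Gnl3l were no longer called in both pairs. That fit had 9 members called lower in both pairs (background 2.76%) and 1 higher (background 5.49%). When edgeR was asked for changes beyond 1.2-fold, 7 members passed, all lower, namely Fbl, Nol12, Nop16, Npm3, Polr1e, Rrp9 and Srm. By that test 2.85% of all genes tested were lower and 6.44% higher.

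**Figure D1:**
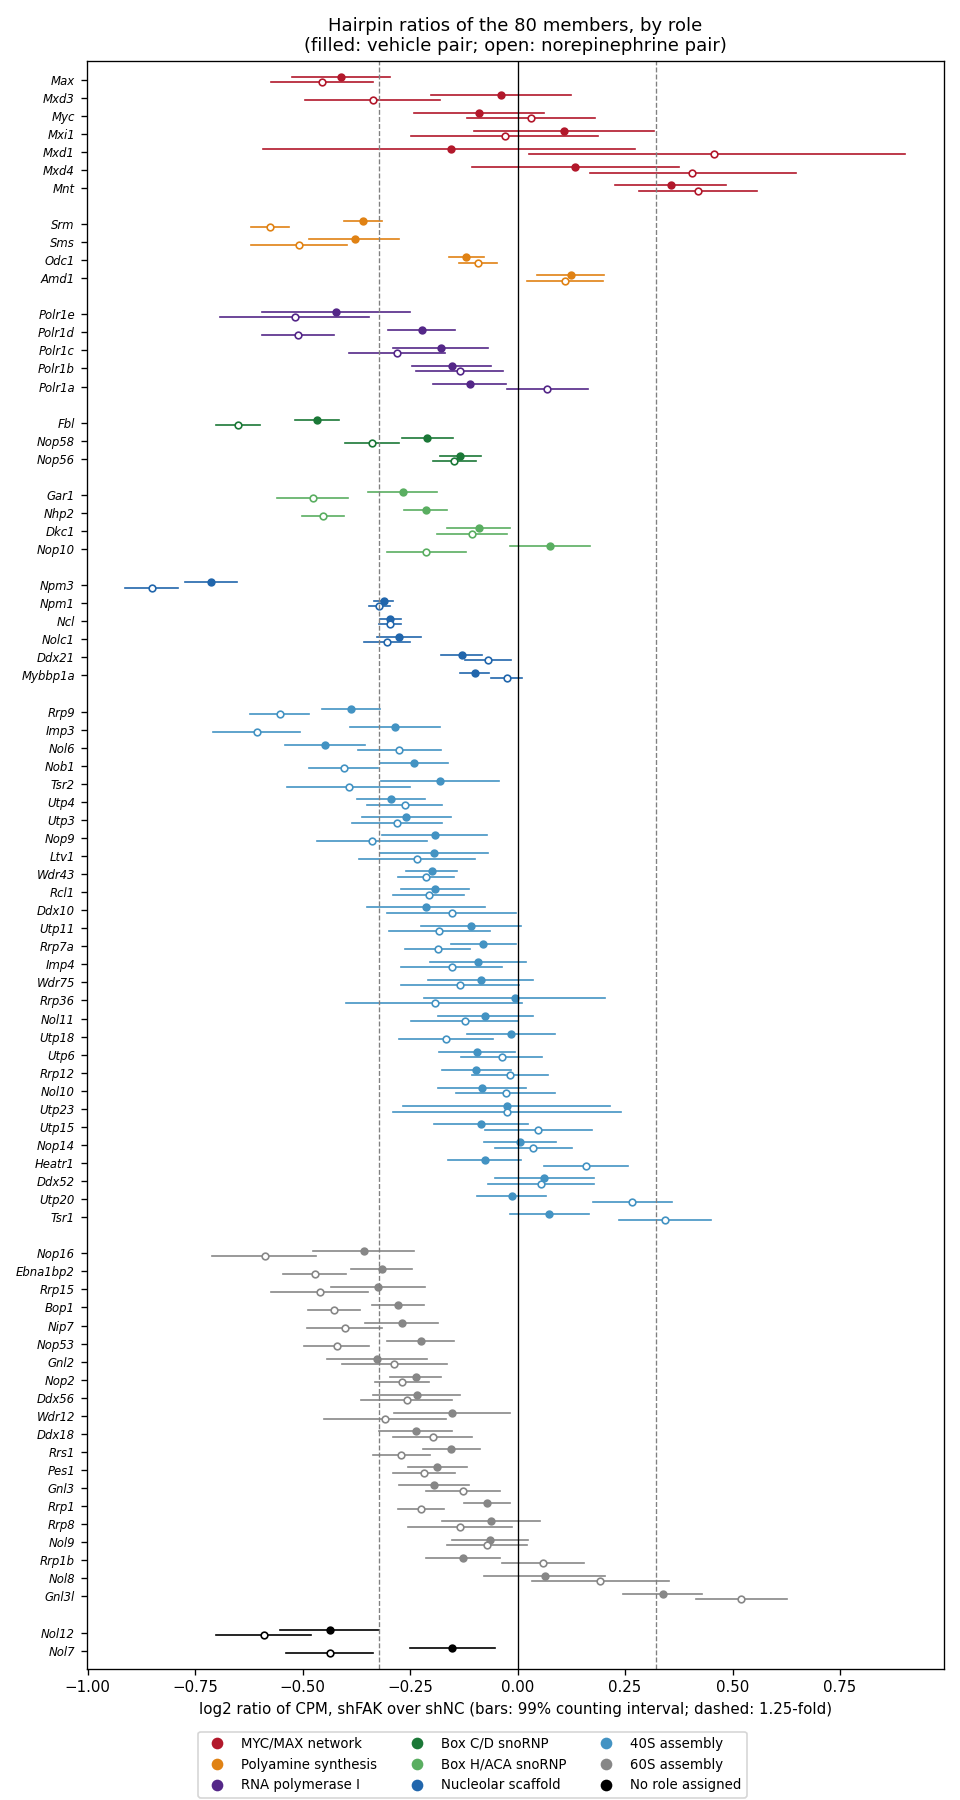
Log2 ratio of CPM, shFAK over shNC, for each of the 80 members, ordered within role. Filled points are the vehicle pair, open points the norepinephrine pair, bars the 99% counting interval and dashed lines the call threshold of 0.32 in size. Npm3 lies farthest left at -0.71 and -0.85, and Gnl3l and Mnt lie right of the upper line in both pairs.

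Myc itself did not pass the test. Myc (ENSMUSG00000022346, chr15:61985391-61990374 on mm10) was at 45.4 and 49.3 CPM in the shNC vehicle and norepinephrine libraries and at 42.7 and 50.4 CPM in the shFAK ones. The libraries of the 2 lines overlapped. Its hairpin log2 ratio was -0.09 under vehicle (interval -0.24 to 0.06) and 0.03 under norepinephrine (-0.12 to 0.18), with an adjusted p of 0.832 in edgeR. The table holds mouse genes, so these counts do not measure total MYC, and how reads of the human transgene were counted was not tested.

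Max, the partner with which MYC binds DNA, fell. Max was at 89.7 and 94.6 CPM in the shNC libraries and at 67.5 and 69.0 CPM in the shFAK libraries, so both shFAK libraries lay below both shNC libraries. The log2 ratio was -0.41 under vehicle (-0.53 to -0.30) and -0.45 under norepinephrine (-0.57 to -0.34), with an edgeR adjusted p of 1.68e-05. Mnt, a repressor that pairs with MAX and competes with MYC, moved the other way. Its level was 52.9 and 51.1 CPM in shNC and 67.7 and 68.4 CPM in shFAK, and the groups did not overlap. The log2 ratio was 0.36 (0.23 to 0.49) under vehicle and 0.42 (0.28 to 0.56) under norepinephrine, with an edgeR adjusted p of 0.000104.

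The MXD proteins are further MAX partners that repress transcription and are linked to differentiation. Mxd4 was at 16.6 and 17.0 CPM in shNC and at 18.2 and 22.5 CPM in shFAK, with ratios of 0.13 and 0.41, and it rose in the additive model (edgeR adjusted p = 0.0256). Mxd3 was at 38.3 and 51.8 CPM in shNC and 37.2 and 41.0 CPM in shFAK, and the lines overlapped. Mxi1 was at 22.2 and 23.9 CPM in shNC and 23.9 and 23.4 CPM in shFAK, nearly level in all 4 libraries. Mxd1, the lowest member per length, had 173 and 137 counts in the shNC libraries and 139 and 170 in the shFAK libraries. None of Mxd1, Mxd3 and Mxi1 passed the edgeR test for the hairpin, with adjusted p of 0.471, 0.0934 and 0.794. In all, 1 of the 7 MYC/MAX genes tested fell (14.3%) and 2 rose (28.6%), near the 16.2% and 19.5% of all genes tested. Mxd4 did not pass in the corrected fit (edgeR adjusted p = 0.269), which left 1 lower and 1 higher.

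Of 8 tested genes from a list of MYC relatives and regulators, 3 rose with the FAK hairpins and none fell, against 19.5% and 16.2% of all genes tested, and in the corrected fit 2 rose and 1 fell. Mga, a large MAX partner with a T-box domain, had hairpin ratios of 0.55 and 0.87 under vehicle and norepinephrine. Trrap, the scaffold through which MYC recruits acetyltransferases, was at 0.26 and 0.55. Mlxip, a partner of the MAX-like protein MLX, was at 0.15 and 0.51. Fbxw7, which marks MYC for degradation, was at -0.20 and -0.16 and did not pass (edgeR adjusted p = 0.145). Fbxw7 fell in the corrected fit (edgeR adjusted p = 0.00376), while there Trrap did not pass (edgeR adjusted p = 0.192) and Mga had ratios of 0.36 and 0.50.

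Of the 4 polyamine synthesis enzymes, the synthases fell and the enzymes that supply them did not pass the test. Srm, spermidine synthase, was at 581 and 705 CPM in shNC and at 453 and 473 CPM in shFAK. Its log2 ratio was -0.36 under vehicle (-0.40 to -0.32) and -0.57 under norepinephrine (-0.62 to -0.53), with an edgeR adjusted p of 5.92e-07. Sms, spermine synthase, was at 106 and 110 CPM in shNC and at 81.6 and 77.3 CPM in shFAK. Its ratio was -0.38 (-0.48 to -0.28) and -0.51 (-0.62 to -0.40), with an edgeR adjusted p of 9.16e-06. For both genes the shFAK libraries lay below the shNC libraries without overlap.

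Odc1, the first enzyme of the pathway and a classic MYC target, was at 635 and 585 CPM in shNC and at 584 and 548 CPM in shFAK. The shNC norepinephrine and shFAK vehicle libraries were almost level. The log2 ratio was -0.12 under vehicle and -0.09 under norepinephrine, and the edgeR adjusted p was 0.336. Amd1, which makes the aminopropyl donor for both synthases, was at 157 and 137 CPM in shNC and at 171 and 148 CPM in shFAK, with overlap between the lines. Its ratios were 0.12 and 0.11 and its edgeR adjusted p was 0.305. Odc1 shares a near-identical stretch with 10 other genes, Amd1 with 5 and Sms with 5. How reads shared between genes were counted was not given in the sources used here. Srm has none by the same search.

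Per kilobase of gene length, Srm was the third most abundant member at a mean of 346 CPM per kb and Odc1 the fifth at 173. Amd1 stood at 43.3 CPM per kb and Sms at 15.6, near Myc at 17.3 and Max at 22.3. Npm1 led the members at 724 CPM per kb, and Mxd1 was last at 0.823. The median member was at 32.0 CPM per kb and the median gene tested at 7.14.

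**Figure D2:**
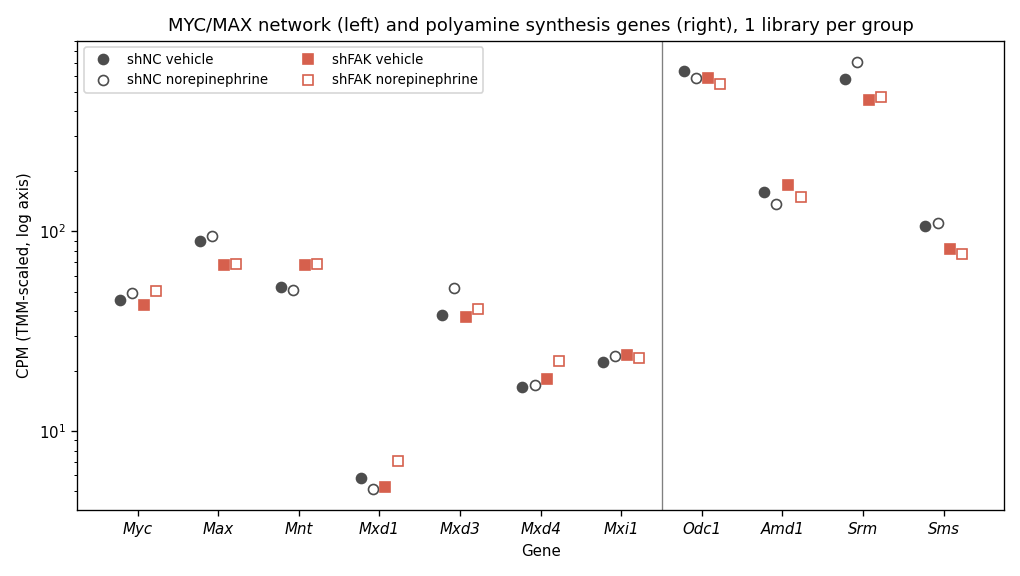
Scaled CPM on a log axis in each of the 4 libraries for the 7 MYC/MAX genes and the 4 polyamine synthesis genes. Max, Srm and Sms lie lower in both shFAK libraries (squares) than in both shNC libraries (circles), Mnt lies higher, and Myc does not separate the lines.

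Among 13 tested genes of polyamine turnover and use, 6 fell (46.2%, background 16.2%) and 2 rose (15.4%, background 19.5%). Arg1, arginase 1, which makes the ornithine that Odc1 uses, was at 18.6 and 16.2 CPM in shNC and at 9.23 and 9.37 CPM in shFAK. The shFAK level was 49.9% of the shNC level under vehicle and 57.9% under norepinephrine, and the edgeR adjusted p was 4.47e-14. Paox, a polyamine oxidase, was at -0.71 and -0.63 and fell. Azin2, which frees ornithine decarboxylase from its antizyme, was at 0.86 and 0.59 and rose. Smox, spermine oxidase, had 7 to 27 counts per library and did not pass. Eif5a, the protein that receives the spermidine-derived hypusine, was chosen after its values were seen. Its level was 1638 and 1904 CPM in shNC and 1274 and 1316 CPM in shFAK, and it fell.

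RNA polymerase I makes the ribosomal RNA precursor, and 3 of its 5 listed subunits fell (60%, background 16.2%). Polr1e, which helps the enzyme start transcription, was at 39.9 and 45.2 CPM in shNC and at 29.8 and 31.6 CPM in shFAK. Its log2 ratio was -0.42 under vehicle (-0.60 to -0.25) and -0.52 under norepinephrine (-0.69 to -0.34), with an edgeR adjusted p of 8.18e-06. Polr1d was at 176 and 191 CPM in shNC and at 151 and 134 CPM in shFAK, and Polr1c, which with it also belongs to RNA polymerase III, was at 87.4 and 98.7 against 77.2 and 81.3 CPM. These 3 genes were lower in both shFAK libraries than in either shNC library.

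The catalytic core subunits did not pass here. Polr1a, the largest subunit, was at 142 and 120 CPM in shNC and at 132 and 126 CPM in shFAK, inside the range of the shNC libraries. Polr1b, the second catalytic subunit, was at 124 and 115 CPM in shNC and at 112 and 105 CPM in shFAK, with an edgeR adjusted p of 0.2. In the corrected fit both core subunits fell, with edgeR adjusted p of 0.00148 for Polr1a and 0.00592 for Polr1b, and Polr1c no longer passed (0.155), so which subunits passed depended on that correction. Of 11 tested RNA polymerase I transcription factors and further subunits, 3 fell (27.3%) and 1 rose (9.09%), against 16.2% and 19.5% of all genes tested. Znrd1, a small subunit of the polymerase, had ratios of -0.17 and -0.47, Cd3eap, the partner of Polr1e, -0.13 and -0.31, and Taf1c, a promoter selectivity factor, -0.24 and -0.19. Ttf1, the termination factor, rose with ratios of 0.31 and 0.30. Neither Znrd1 nor Cd3eap passed in the corrected fit, with edgeR adjusted p of 0.56 and 0.155.

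The snoRNPs carry out methylation (box C/D) or pseudouridylation (box H/ACA) of ribosomal RNA. Fbl, fibrillarin, the methyltransferase of the box C/D particles, was at 463 and 550 CPM in shNC and at 335 and 350 CPM in shFAK. Its log2 ratio was -0.47 under vehicle (-0.52 to -0.42) and -0.65 under norepinephrine (-0.70 to -0.60), with an edgeR adjusted p of 2.37e-09. Fbl shares a near-identical stretch with 2 other genes. Nop58, a core protein of the same particles, was at 301 and 316 CPM in shNC and at 260 and 250 CPM in shFAK and fell. Nop56, its paralogue in the core, was at 458 and 471 CPM in shNC and at 417 and 425 CPM in shFAK and did not pass (edgeR adjusted p = 0.193). In the corrected fit Nop56 passed as well (edgeR adjusted p = 0.0413), and the ratios of Nop58 were -0.37 and -0.63.

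In the box H/ACA particles, 2 of the 4 proteins fell (50%, background 16.2%). Gar1 was at 167 and 194 CPM in shNC and at 139 and 140 CPM in shFAK, with ratios of -0.27 and -0.48. Nhp2 was at 432 and 534 CPM in shNC and at 372 and 390 CPM in shFAK, with ratios of -0.21 and -0.45. Both were lower in shFAK without overlap. Dkc1, the pseudouridine synthase itself, was at 188 and 172 CPM in shNC and at 176 and 160 CPM in shFAK, and the lines overlapped. Nop10 was at 113 and 143 CPM in shNC and at 119 and 124 CPM in shFAK, so its ratio changed sign between pairs, 0.08 under vehicle and -0.21 under norepinephrine. In the corrected fit the ratios of Nop10 were 0.23 and 0.05, both above 0, and of the 4 proteins only Gar1 passed, at -0.16 and -0.26.

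Among the nucleolar scaffold and shuttling proteins 4 of 6 fell (66.7%, background 16.2%). The member with the most negative hairpin ratio in both pairs was among them. Npm3, a histone chaperone of the nucleoplasmin family that binds nucleophosmin (ENSMUSG00000056209, chr19:45747734-45749591 on mm10), was at 358 and 424 CPM in shNC and at 218 and 235 CPM in shFAK. The shFAK level was 61% of the shNC level under vehicle and 55.4% under norepinephrine. The log2 ratio was -0.71 (-0.77 to -0.65) and -0.85 (-0.91 to -0.79), with an edgeR adjusted p of 3.65e-17. Npm3 has 1 near-identical copy and an exon overlap with another gene.

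Nucleophosmin and nucleolin, abundant nucleolar proteins that bind RNA, also fell, with smaller ratios. Npm1 was at 2126 and 2157 CPM in shNC and at 1713 and 1726 CPM in shFAK, with ratios of -0.31 and -0.32 and an edgeR adjusted p of 0.00027. Ncl was at 1935 and 1891 CPM in shNC and at 1576 and 1539 CPM in shFAK, with ratios of -0.30 in each pair. Nolc1, a chaperone of snoRNPs, was at 430 and 432 CPM in shNC and at 355 and 350 CPM in shFAK. All 3 genes were lower in shFAK without overlap. The ratios of Ncl were -0.42 and -0.56 in the corrected fit. Ddx21, an RNA helicase, was at 463 and 400 CPM in shNC and at 423 and 382 CPM in shFAK, with overlap, and did not pass.

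Assembly factors of the small subunit fell in 10 of 29 cases (34.5%, background 16.2%) and rose in none (background 19.5%). Rrp9, a protein of the U3 snoRNP, was at 252 and 295 CPM in shNC and at 192 and 201 CPM in shFAK, with ratios of -0.39 (-0.46 to -0.32) and -0.55 (-0.62 to -0.49). Imp3, also bound to U3, was at 103 and 137 CPM in shNC and at 84.2 and 90.2 CPM in shFAK. Nol6, of the processome that folds the precursor, was at 135 and 131 CPM in shNC and at 98.9 and 108 CPM in shFAK. Nob1, the nuclease that makes the end of 18S ribosomal RNA, was at 174 and 197 CPM in shNC and at 147 and 149 CPM in shFAK. All 4 fell, and none overlapped between lines. How many of all genes tested also lacked overlap is not given here. The median ratio of the 29 was -0.09 under vehicle and -0.17 under norepinephrine.

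Large-subunit factors fell in 12 of 20 cases (60%, background 16.2%) and rose in 1 (5%, background 19.5%). Nop16 was at 83.1 and 94.7 CPM in shNC and at 64.8 and 62.9 CPM in shFAK, with ratios of -0.36 and -0.59. Rrp15 was at 95.9 and 104 CPM in shNC and at 76.6 and 75.5 CPM in shFAK. Ebna1bp2, a partner of early 60S particles, was at 221 and 250 CPM in shNC and at 178 and 180 CPM in shFAK. These 3 genes were lower in both shFAK libraries. Nop53, which brings the RNA exosome to the precursor, was at 177 and 222 CPM in shNC and at 151 and 166 CPM in shFAK and also fell.

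Gnl3l, a nucleolar GTPase of the nucleostemin family, was the exception. Its level was 105 and 83.5 CPM in shNC and 133 and 120 CPM in shFAK, without overlap. The log2 ratio was 0.34 under vehicle (0.25 to 0.43) and 0.52 under norepinephrine (0.41 to 0.63), and the edgeR adjusted p was 1.7e-05. Its relatives Gnl2 and Gnl3 had ratios below 0 in both pairs, -0.33 and -0.29 for Gnl2 and -0.19 and -0.13 for Gnl3, of which Gnl2 passed the test.

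The 2 tested members with no assigned role, Nol7 and Nol12, are nucleolar proteins, and both fell. Nol12 was at 90.3 and 115 CPM in shNC and at 66.7 and 76.4 CPM in shFAK, with ratios of -0.44 and -0.59. Nol7 was at 108 and 128 CPM in shNC and at 97.3 and 94.2 CPM in shFAK, with ratios of -0.15 and -0.44.

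The same direction was seen in ribosome genes outside the chosen names. Of 58 further assembly factors tested, 25 fell (43.1%) and 2 rose (3.45%), with medians of -0.12 under vehicle and -0.19 under norepinephrine. Of all genes tested, 16.2% fell and 19.5% rose. Ppan had ratios of -0.42 and -0.51, Mrto4 -0.36 and -0.56, and Lyar -0.39 and -0.52. Mdn1, the large ATPase that remodels 60S particles, rose with ratios of 0.34 and 0.83. Of 76 cytosolic ribosomal protein genes, 71 fell (93.4%) and none rose, with medians of -0.26 and -0.52. Of 77 mitochondrial ribosomal protein genes, which serve another ribosome, 53 fell (68.8%) and none rose, with medians of -0.20 and -0.35. In the corrected fit 62 of the cytosolic genes fell and 1 rose, with medians of -0.18 and -0.32, and 38 of the mitochondrial genes fell and 1 rose, with medians of -0.12 and -0.18. In that fit 17.4% of all genes fell and 17.6% rose. The ratios of Mdn1 were then 0.13 and 0.41. No test compared these lists with the members.

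Few members passed the test for norepinephrine, at shares near those of all genes tested. In the additive model 3 of 80 rose (3.75%) and 4 fell (5.00%), against 5.04% and 7.29% of all genes tested. None was called in both lines in either direction, where the background was 0.737% higher and 0.753% lower. In shNC alone 5 were called higher (background 7.64%) and 4 lower (background 10.1%), and in shFAK alone 1 was higher (background 2.52%) and none lower (background 1.46%). The median ratio of the members was 0.02 in shNC and -0.02 in shFAK. The ratio was above 0 in both lines for 29 members, below 0 in both for 29 and of opposite sign for 22.

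The genes that fell with norepinephrine were Tsr1, Heatr1, Utp20 and Gnl3l. Tsr1, a late 40S assembly factor, was at 115 CPM under vehicle and 85.1 under norepinephrine in shNC, and at 121 and 108 CPM in shFAK. Its log2 ratios were -0.44 (-0.54 to -0.34) and -0.17 (-0.27 to -0.07), with an edgeR adjusted p of 0.0114. Heatr1, a large processome protein needed for ribosomal RNA transcription, was at 141 and 108 CPM in shNC and at 133 and 120 CPM in shFAK. Both norepinephrine libraries were below both vehicle libraries for Tsr1 and Heatr1. Utp20 had norepinephrine ratios of -0.40 in shNC and -0.12 in shFAK, and Gnl3l -0.33 and -0.15, the latter with an edgeR adjusted p of 0.0491.

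Those that rose were Mxd3, Imp3 and Nol12. Mxd3 went from 38.3 to 51.8 CPM in shNC and was at 37.2 and 41.0 CPM in shFAK, with ratios of 0.44 (0.29 to 0.59) and 0.14 (-0.03 to 0.31) and an edgeR adjusted p of 0.019. Imp3 had norepinephrine ratios of 0.42 and 0.10, and Nol12 0.35 and 0.20. All 7 genes had a ratio of larger size in shNC than in shFAK. How many of all genes tested did so is not given here. Over all genes tested, calls were also more frequent in shNC (7.64% higher, 10.1% lower) than in shFAK (2.52% and 1.46%). None of the 7 differences, shFAK minus shNC, reached the size needed for a call, which does not show that the lines were alike. The interval of the difference left out 0 for Imp3 among others, at -0.321 (-0.465 to -0.176) against a threshold of 0.322 in size. For Heatr1 the difference was 0.24 (0.11 to 0.37). Over the 80 members the interval left out 0 for 31, against 2839 of all 12351 genes tested.

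Neither Myc nor the polyamine enzymes passed the test for norepinephrine. Myc had ratios of 0.12 (-0.03 to 0.27) in shNC and 0.24 (0.08 to 0.39) in shFAK, with an edgeR adjusted p of 0.178. Amd1 was lower under norepinephrine in each line, at -0.19 and -0.21, and Odc1 at -0.12 and -0.09, with edgeR adjusted p of 0.112 and 0.452. With the length trend alone taken off, Amd1 passed (edgeR adjusted p = 0.0128), and with GC content taken off as well it did not (0.161). Srm had ratios of 0.28 in shNC and 0.06 in shFAK (edgeR adjusted p = 0.167). Between lines, the difference of the norepinephrine ratios was called for 1 member, Mxd1, whose ratio was higher in shFAK (background 4.19% higher), and for none in the other direction (background 2.59%).

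**Figure D3:**
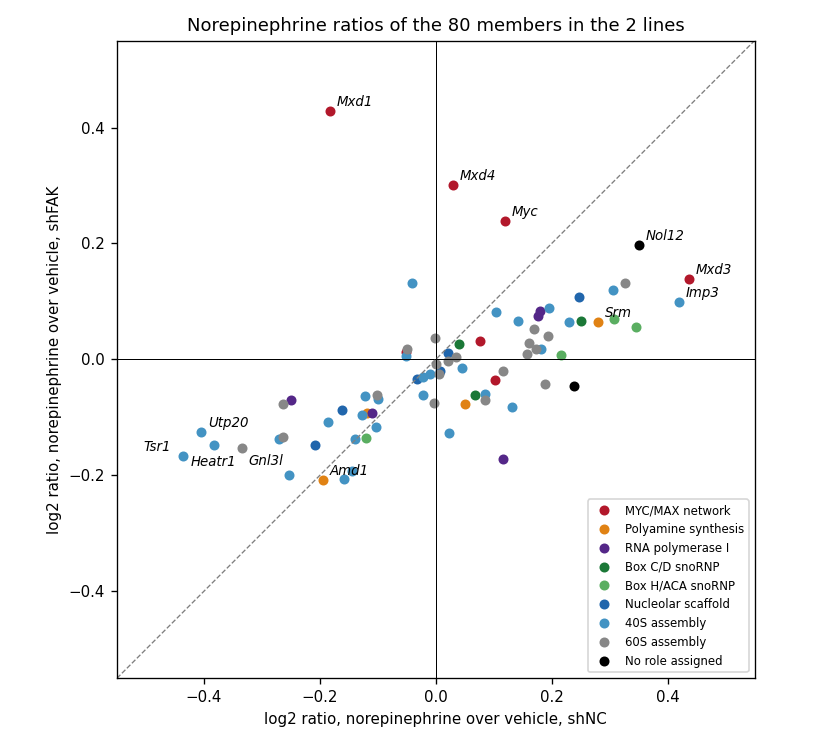
Log2 ratio of CPM, norepinephrine over vehicle, in shNC (horizontal) and shFAK (vertical) for the 80 members, with the diagonal dashed. Tsr1, Heatr1 and Utp20 lie at the lower left and Mxd3, Imp3 and Nol12 at the right. Mxd1 is the point at upper left, at -0.18 in shNC and 0.43 in shFAK.

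Gene length moved with these ratios, in the members and in all genes. Over the 80 members, which share the same 4 libraries, Spearman's correlation of the hairpin ratio with length was 0.266 under vehicle and 0.434 under norepinephrine, and that of the norepinephrine ratio was -0.495 in shNC and -0.328 in shFAK. Over all 12351 genes the values were 0.324, 0.466, -0.487 and -0.287. Of the 20 shortest members (924 to 2717 bases) 14 fell with the hairpins, and of the 20 longest (5242 to 11955 bases) 5 fell. The 20 shortest had a median norepinephrine ratio of 0.17 in shNC and the 20 longest -0.13.

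In the corrected fit, 41 members fell with the hairpins and 3 rose, and 32 of the 38 genes that fell before still did. The background was then 17.4% lower and 17.6% higher. Npm3, Fbl, Max, Srm, Sms and Polr1e still fell, Mnt and Gnl3l still rose, and 6 of the genes that fell before (Nhp2, Ddx18, Rrs1, Polr1c, Ltv1 and Utp3) and Mxd4 no longer passed. Calls were gained for 9 lower genes (Nop56, Pes1, Rrp1b, Polr1a, Polr1b, Ddx10, Imp4, Rrp7a and Utp11) and for Tsr1, which rose. The ratios of Srm were -0.23 and -0.33, those of Imp3 -0.10 and -0.28, and that of Npm3 under norepinephrine -0.55. For norepinephrine, 1 of the 3 genes that rose, Nol12, and 1 of the 4 that fell, Tsr1, still passed, while Mxd3, Imp3, Heatr1, Utp20 and Gnl3l did not. Ncl, Nop58 and Wdr12 then passed as higher and Nol10 and Rrp12 as lower. Tsr1 overlaps exons of another gene, and the kit used does not mark strand.

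**Figure D4:**
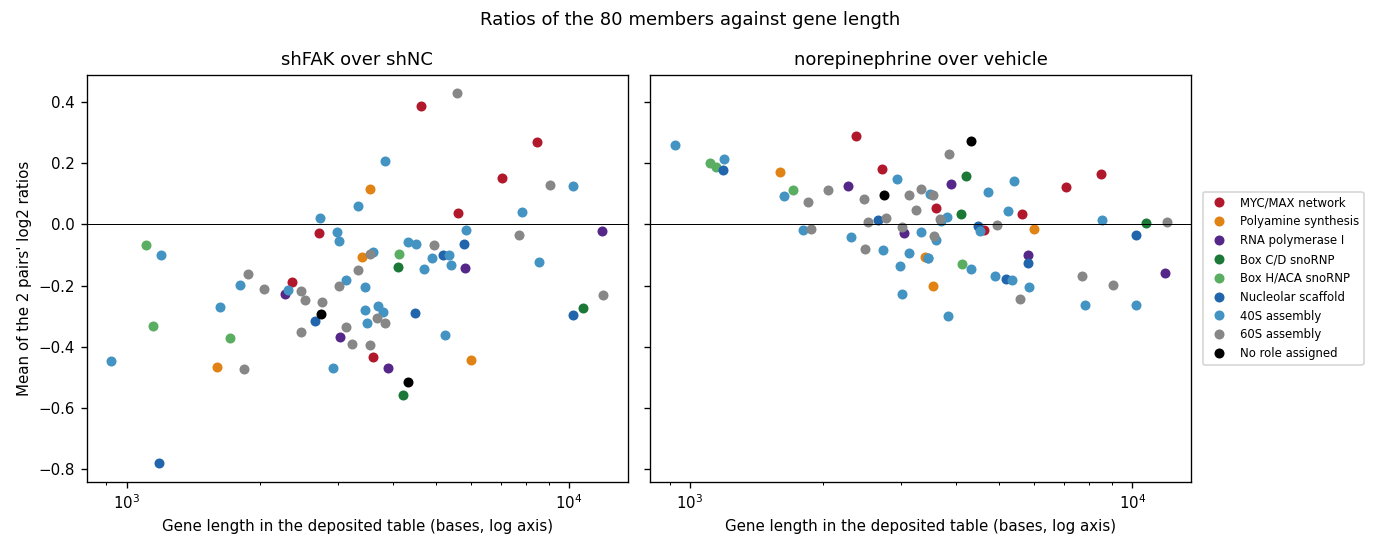
Mean of the 2 log2 ratios of each of the 80 members against gene length in bases (log axis), for shFAK over shNC (left) and norepinephrine over vehicle (right), coloured by role. Short genes lie lower on the left and higher on the right, and Npm3 is the lowest point on the left.

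Some members share sequence with other genes, which makes their single counts uncertain. Of the 83 members, 14 had a near-identical stretch in a gene elsewhere and 31 shared exon bases with another gene. Among the 41 tested members with neither, 20 fell (48.8%, background 16.2%). Their median ratios were -0.18 under vehicle and -0.22 under norepinephrine.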

How the data were processed

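The authors deposited unnormalized counts per gene, with 1 column for each of the 4 libraries. The submitters' processing notes name the mm10 build, featureCounts 1.5.0-p3 and HISAT2 2.0.5. How reads with several matches and reads on either strand were counted was not given in the sources used here. Total RNA from Trizol went into NEBNext Ultra libraries, per the labels' protocols.

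From these counts, log2 ratios of TMM-scaled CPM (prior count 2) with exact Clopper-Pearson 99% intervals and the additive edgeR 4.0.16 model (R 4.3.3) were computed over genes with at least 1 CPM in a library. The fitting steps were tested on simulated data. DESeq2 1.42.0 was an alternative. Copies were found with minimap2 2.31 among GENCODE M21 transcripts (at least 95% identity over at least 100 bases). A hit can therefore be a shared stretch and not a copy of the whole gene. The deposited coordinates were identical to M21 for 75 of the 83 members. Promoter sequences are from RefSeq. Some marker genes are not reported here.

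Values per library are given for the MYC/MAX and polyamine genes and, in each role, for up to 4 members with the largest mean hairpin ratio and up to 2 with the largest mean norepinephrine ratio, by size. Up to 4 genes of each related list are named by the same rule. The members and lists were chosen with earlier results of these data known. The alternatives tried were other scalings, filters, tests, prior counts, fold thresholds and corrections for length and GC content.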

Additional observations from a re-analysis of the deposited data

Results flagged for a closer look

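Mxd1 stood out because it was the only member whose difference of norepinephrine ratios between the lines was called. The counting interval of that difference left out 0 for 31 of the 80 members, against 2839 of all 12351 genes tested. Of those 31, only Mxd1 also reached 0.32 in size. It had 173 counts under vehicle and 137 under norepinephrine in shNC, a log2 ratio of -0.18 (99% counting interval -0.62 to 0.25), and 139 and 170 counts in shFAK, a ratio of 0.43 (0.00 to 0.87). The difference, shFAK minus shNC, was 0.61 with an interval of 0.01 to 1.21. The interval of the shNC ratio includes 0, so no direction is shown there. The difference was no longer called with DESeq2 size factors, without a filter on low counts, with the length trend or the length and GC trends taken off, or with a prior count of 10. With 1 library per group, the difference was not tested against variation between cultures. Mxd1 was the member with the lowest level per length.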

How the results depend on the processing

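The counts of members that fell with the FAK hairpins kept within 1.5 times of 38 under most other scalings, filters and tests. They ran from 26 with DESeq2's Wald test (6.18% of all genes) to 41 with length and GC trends removed (17.4%). The exception was edgeR's test against 1.2-fold, which left 7 lower (2.85%) and 0 higher (6.44%). Scaling by library size alone gave 27 lower and 4 higher members, with 9.72% and 23.5% of all genes, and a member median of -0.13 under norepinephrine. In both pairs, a 1.5-fold threshold left 1 lower (0.834% of all genes) and 0 higher (2.44%), and a 1.1-fold threshold gave 41 lower (14.0%). Removing the length trend left 1 higher (5.38%), and so did removing length and GC trends (5.49%). The vehicle pair used alone, without the shFAK norepinephrine library, gave 12 lower (5.54% of all genes) and 2 higher (9.94%). With the length trend removed 1 was higher (8.04%), and with length and GC trends removed 1 (8.11%). These settings were chosen after seeing the data.

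The norepinephrine calls depended on the processing. In the additive model 0 members were higher with library size alone, without a filter, with DESeq2's Wald test and with edgeR's 1.2-fold test. The shares of all genes higher in those fits were 2.94%, 1.03%, 0.227% and 0.34%. Lower members numbered 1, 0 and 0 in the last 3, against 2.45%, 0.68% and 0.356% of all genes. At an unadjusted p under 0.05 there were 20 members in edgeR, 10 with the Wald test and 0 with the 1.2-fold test. The share of all genes at that threshold is not given here, so these counts cannot be read as high or low. In both lines, a 1.1-fold threshold gave 1 higher and 8 lower, against 4.31% and 7.19% of all genes. In shNC, higher calls numbered 2 with library size alone (5.89% of all genes), the length trend removed (4.57%) or both trends removed (3.64%). Lower calls numbered 2 without the length trend (5.27%) and 1 without length and GC trends (4.27%). A 1.5-fold threshold gave 0 higher (1.56%) and 0 lower (2.16%). A 1.1-fold threshold gave 24 higher (18.9%) and 15 lower (20.5%). In shFAK, higher calls numbered 0 with DESeq2 size factors (2.46% of all genes), without a filter (1.86%) and at 1.5-fold (1.27%). They numbered 2 without the length trend (2.25%) and 2 without length and GC trends (1.83%). At 1.1-fold 4 were higher (7.35%) and 9 lower (8.91%). For the difference between lines, 2 were higher with library size alone (6.12% of all genes) and 8 at 1.1-fold (10.9%). None was higher with DESeq2 size factors (3.52%), without a filter (1.17%) or with a prior count of 10 (3.68%). The same held with the length trend removed (2.48%) or both trends removed (2.44%). Lower calls of this difference numbered 1 with DESeq2 size factors (3.24% of all genes), upper-quartile factors (2.77%) or protein-coding genes alone (2.43%). They numbered 5 without a filter (2.07%) and 19 at 1.1-fold (9.59%). Counting CACGCG as well as CACGTG raised the share of members with a matching promoter window to 48.5%, against 30.5% of protein-coding genes tested. Where no construction shows it, the cause of these changes was not tested.

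No paired analysis was possible because each group had 1 library. At this depth counting error is small for most members and wide for Mxd1, and variation between cultures was not measured.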
